A study of Mus musculus with 16 samples.

Results

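The genes described here encode the replication-dependent histones, and they lie in clusters on mouse chromosomes 3 and 13. They were chosen by name: every protein-coding gene in the RefSeq table for mm10 whose symbol starts as H1f1 to H1f6, H2ac, H2bc, H3c or H4c with a number, or whose older Hist1h or Hist2h name does. This gave 64 of 21883 protein-coding genes of the nuclear chromosomes, and 2 pseudogenes with such symbols were left out. H4bc24 entered through its older name, Hist1h2br, and is counted as an H2B gene. The group was put forward with E2f4 peaks and mark lengths of the same lists already known, so its counts are given as a description, beside the same counts over all genes and without a test.

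The study mapped E2f4 binding, H3K4me2 and H3K27ac by ChIP-seq. Mouse livers were taken 40 h after a partial hepatectomy, an operation in which part of the liver is removed and hepatocytes of the rest start to divide. WT animals carried Arid1a Fl/Fl and KO animals carried Arid1a Fl/Fl; Alb-cre, in which a Cre recombinase under the albumin promoter deletes the gene in hepatocytes; both were of mixed C57/B6 and 129 strain and taken at postnatal day 90. Arid1a belongs to SWI/SNF, a complex that moves nucleosomes. There were 2 E2f4 libraries per genotype and 1 library per genotype for each mark, each with an input that was not analysed here. Peak lists hold no read counts, so sequencing depth is unknown, the Arid1a deletion cannot be checked from them, and a change in the share of a cell type cannot be told apart from a change within cells. The labels do not say whether libraries came from separate animals.

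Replication-dependent histone genes are short, lack introns, and are copied into mRNA mainly in S phase, when new DNA is packaged. Their mRNAs end in a stem-loop in place of a poly(A) tail. E2f4 is an E2F family protein that, with pocket proteins, occupies promoters of cell cycle genes in resting cells and early in the cycle. H3K4me2 is found at promoters and enhancers, and H3K27ac at active ones among them.

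The 64 genes comprised 6 H1, 17 H2A, 17 H2B, 12 H3 and 12 H4 genes. Gene starts no more than 500 bp apart were treated as sharing a promoter, which gave 53 promoters: 41 with 1 gene and 12 with a pair. All 12 pairs joined an H2A gene to an H2B gene, with starts 164 to 281 bp apart (median 210.5 bp), and the 10 pairs with both strands known were transcribed away from each other. H2bc6 has annotated starts at 23585970 and 23621094 within a long gene model and so counts under 2 promoters. With neighbours within 100 kb joined, 4 clusters lay on chromosome 13 and 1 on chromosome 3. The chromosome 3 cluster held 10 genes over 50.3 kb (96219885 to 96270192). The first cluster of chromosome 13 held 18 genes over 122 kb (21715711 to 21837530), the second 5 genes over 8.54 kb (22035122 to 22043658) and the third 29 genes over 233 kb (23531044 to 23764412). The fourth held only the testis variants H2bc1 and H2ac1 (23933725 to 23934913).

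The shared H2A/H2B promoters shown first are the 4 that were called in 3 or 4 E2f4 libraries and hold the same short run of letters, near which their summits fall. They are RefSeq sequences on mm10 coordinates, read on the plus strand from the start of the first gene to the start of the second, with the E2F letters TTCGCGC in capitals (on the other strand, GCGCGAA). They cover chr13:22035636-22035820 (including the first 8 bases of the H2ac12 transcript), chr13:22042950-22043197, chr13:23574208-23574404 (including the first 24 bases of the H2ac7 transcript) and chr13:21787249-21787487.
H2ac12/H2bc12: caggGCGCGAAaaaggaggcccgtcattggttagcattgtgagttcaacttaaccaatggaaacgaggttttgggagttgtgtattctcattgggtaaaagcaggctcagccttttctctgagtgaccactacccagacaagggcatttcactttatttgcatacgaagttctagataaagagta
H2ac11/H2bc11: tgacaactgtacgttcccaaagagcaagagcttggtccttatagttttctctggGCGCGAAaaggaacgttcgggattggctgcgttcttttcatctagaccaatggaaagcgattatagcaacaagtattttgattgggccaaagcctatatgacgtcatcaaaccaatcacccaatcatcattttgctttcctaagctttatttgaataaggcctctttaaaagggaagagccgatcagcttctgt
H2bc7/H2ac7: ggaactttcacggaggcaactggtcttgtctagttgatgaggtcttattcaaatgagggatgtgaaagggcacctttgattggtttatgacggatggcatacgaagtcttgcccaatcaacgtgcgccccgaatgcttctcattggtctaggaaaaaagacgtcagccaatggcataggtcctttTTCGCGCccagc
H2ac22/H2bc22: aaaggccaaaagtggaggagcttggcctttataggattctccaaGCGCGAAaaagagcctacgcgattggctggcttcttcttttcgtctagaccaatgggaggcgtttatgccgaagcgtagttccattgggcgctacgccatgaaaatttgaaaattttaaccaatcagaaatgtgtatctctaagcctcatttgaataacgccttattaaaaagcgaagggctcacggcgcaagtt
The pair H2ac8 and H2bc8 (chr13:23571221-23571399, plus strand), which had no E2f4 summit in any library, has the same layout without those letters.
H2ac8/H2bc8: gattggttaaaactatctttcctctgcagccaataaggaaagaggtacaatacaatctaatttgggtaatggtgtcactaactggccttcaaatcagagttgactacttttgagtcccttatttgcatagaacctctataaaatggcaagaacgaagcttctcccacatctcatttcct
H2ac10 (chr13:23533725-23533874, plus strand, up to the gene start), the gene whose peaks were in the lists of both WT libraries and of no KO library, holds the letters once.
H2ac10: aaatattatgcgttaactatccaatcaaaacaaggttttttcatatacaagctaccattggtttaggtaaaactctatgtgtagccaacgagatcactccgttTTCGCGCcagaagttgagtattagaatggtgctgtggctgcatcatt

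The next stretches are from called promoters of other histone classes: H4c1 holds different E2F letters, and H3c8 and H3c3 hold none of those searched. Upstream of H4c1 (chr13:23761250-23761479, minus strand, read 5′ to 3′ towards the gene) the E2F letters TTCCCGC, in capitals, occur 4 times.
H4c1: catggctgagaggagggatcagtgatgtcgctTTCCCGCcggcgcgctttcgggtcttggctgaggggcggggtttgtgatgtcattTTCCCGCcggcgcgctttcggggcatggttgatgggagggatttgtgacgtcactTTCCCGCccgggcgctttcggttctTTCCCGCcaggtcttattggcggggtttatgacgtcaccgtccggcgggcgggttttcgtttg
The H3c8 stretch (chr13:23535188-23535417, plus strand) and the H3c3 stretch (chr13:23745522-23745671, minus strand) end at the gene start and hold none of the E2F letters searched, so nothing is in capitals.
H3c8: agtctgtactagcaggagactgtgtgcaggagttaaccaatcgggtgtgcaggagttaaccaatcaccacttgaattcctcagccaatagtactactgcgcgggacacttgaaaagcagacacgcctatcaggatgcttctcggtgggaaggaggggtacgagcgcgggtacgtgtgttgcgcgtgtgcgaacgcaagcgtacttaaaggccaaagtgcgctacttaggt
H3c3: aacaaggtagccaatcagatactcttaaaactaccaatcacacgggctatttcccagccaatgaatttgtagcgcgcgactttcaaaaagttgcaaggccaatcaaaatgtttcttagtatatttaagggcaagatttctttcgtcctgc

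E2f4 was called at a minority of histone genes, and 12 of them were called in every library, with H2ac12, H2bc12 and H3c8 among the strongest peaks of all 4 lists. A gene was counted when a peak summit lay within 1000 bp of its start. Library WT 1 had 22 of 64 genes (34.4%) against 6.66% of all genes, and WT 2 had 16 (25.0%) against 4.71%. Library KO 1 had 13 (20.3%) against 1.14% of all genes, and KO 2 had 18 (28.1%) against 3.23%. The lists themselves held 1791, 1058, 287 and 683 peaks in that order, and KO 1, the shortest, had summits at 249 genes in all. The counts averaged 19 ± 4.24 (SD, n = 2) in WT and 15.5 ± 3.54 in KO, and their ranges overlapped. The KO mean was 81.6% of the WT mean for histone genes and 38.4% for all genes (1243.5 ± 302 and 478 ± 324). With all lists limited to their 287 strongest peaks the sign turned, and the KO mean was above the WT mean by 2 genes (WT minus KO, -2.0). With 2 libraries against 2, the smallest exact two-sided permutation p is 0.33 over 6 assignments.

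Both WT libraries had a summit at 15 genes (23.4%), against 3.83% of all genes. At least 1 KO library had one at 19 genes (29.7%, against 3.26%), both KO libraries at 12 (18.8%, against 1.11%), and all 4 libraries at the same number, 12 (18.8%, against 1.1%). Of the 15 genes that both WT libraries shared, 14 (93.3%) also had one in a KO library, where 71.6% of such genes did across the genome. Both KO libraries kept 12 of the 15 (80.0%), where the share over all genes was 28.6%. No library had a summit at 39 of the 64 genes. Counted by promoter, 9 of 53 had a summit in all 4 libraries, 1 in 3, 4 in 2, 5 in 1 and 34 in none.

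**Figure D1:**
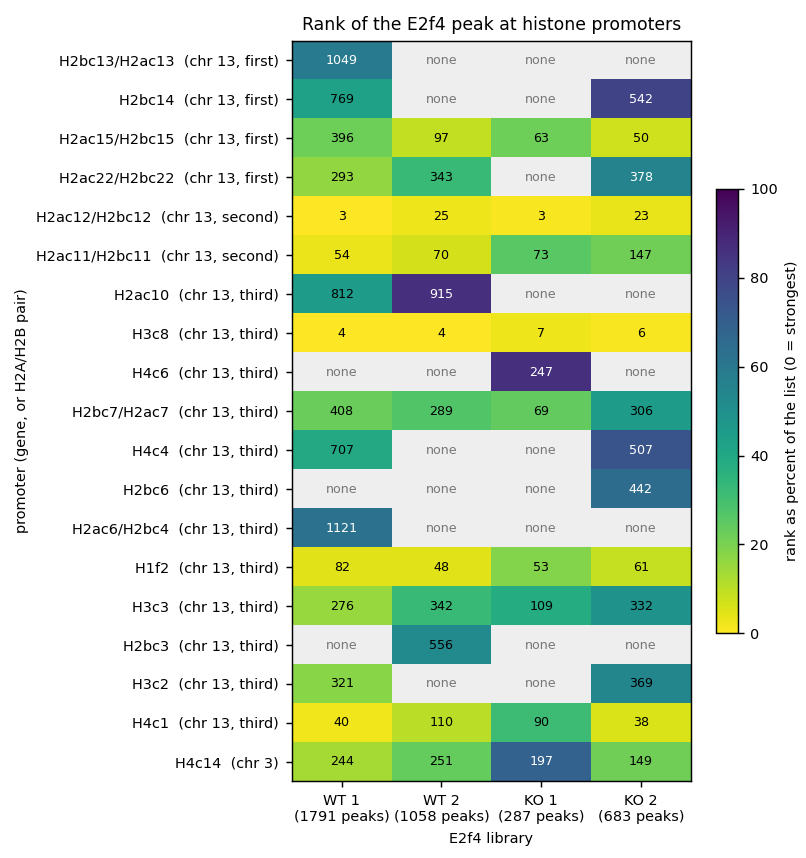
Rank of the E2f4 peak at each of the 19 histone promoters with a summit within 1000 bp in at least 1 library. Rows are promoters in order along their clusters, columns are the 4 libraries, the printed number is the rank by q-value within that library's list, and the shade is that rank as a percent of the list; 9 promoters carry a number in every column, and H2ac12/H2bc12 and H3c8 stand among the 25 strongest peaks of all 4 lists.

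The pair H2ac12 and H2bc12, which encode histones H2A and H2B, had the peak ranked 3 of 1791 in WT 1, 25 of 1058 in WT 2, 3 of 287 in KO 1 and 23 of 683 in KO 2. Its fold enrichments, the authors' values over local background, were 58.1, 47.4, 37.9 and 18.5 in the same order. The summits of the 4 libraries spread over 4 bp and lay 5 to 9 bp inside the H2ac12 transcript. The neighbouring pair H2ac11 and H2bc11 ranked 54, 70, 73 and 147. The pair H2bc7 and H2ac7 ranked 408, 289, 69 and 306, which is 22.8%, 27.3%, 24% and 44.8% of the way down the lists. The pair H2ac22 and H2bc22 ranked 293 and 343 in WT and 378 in KO 2, and was missing from KO 1.

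Among H3 genes, H3c8 ranked 4, 4, 7 and 6 in WT 1, WT 2, KO 1 and KO 2, with fold enrichments of 56.8, 82.5, 25.5 and 35.9. Its summits lay 132, 136, 125 and 130 bp before the start. H3c3 ranked 276, 342, 109 and 332, and its summits spread over 50 bp. H3c2 had a summit in WT 1 (rank 321) and KO 2 (rank 369) only, and the other 9 of 12 H3 genes had none in any library.

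Among H4 genes, H4c1 ranked 40, 110, 90 and 38. By the median over the 4 libraries its peak was wider than at the other 8 promoters called in every library, 489 bp against 217 to 405.5 bp. In WT 1 and WT 2 the H3c8 peak was wider (723 and 534 bp, against 515 and 494 bp at H4c1). H4c14, on chromosome 3, ranked 244, 251, 197 and 149 and was the only gene of that cluster with a summit. Its summit moved most, by 89 bp, while the other 8 moved by 4 to 50 bp (median of all 9, 17 bp). In each of the 9 promoters the peaks of the 4 libraries shared bases. H4c4 was called in WT 1 (rank 707) and KO 2 (rank 507), H4c6 only in KO 1 (rank 247 of 287), and 8 of 12 H4 genes in no library.

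Among H1 genes, which encode the linker histones, only H1f2 had a summit within the window, and it lay beyond the gene's end. Its ranks were 82, 48, 53 and 61, and its summits were 969, 968, 959 and 968 bp from the start, 235 to 245 bp past the end of the gene. H2bc15 had the same arrangement, with ranks of 396, 97, 63 and 50 and summits 839 to 847 bp from the start, 362 to 370 bp past the gene's end. H1f5 fell just outside the window: its summits were at 1110, 1092, 1089 and 1102 bp, 296 to 317 bp past its end, with ranks of 388, 625, 104 and 548. These 3 sites downstream of genes were in all 4 lists. The histone gene just inside the 1000 bp limit was thus H1f2. Just outside was H2ac15, which shares a promoter with H2bc15 and was not counted. Its start lay 1008, 1008, 1011 and 1003 bp from the H2bc15 summits in WT 1, WT 2, KO 1 and KO 2. H1f5 lay farther out.

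The remaining summits were in part of the libraries. H2ac10 was called in WT 1 (rank 812) and WT 2 (rank 915) and in neither KO library. H2bc13, H2ac13, H2ac6, H2bc4 and H2bc3 had a summit in 1 WT library and none in KO. H2bc14, H4c4 and H3c2 had one in 1 WT and 1 KO library, and H4c6 and H2bc6 in 1 KO library only. The H2bc6 summit lay 717 bp from the start at 23585970 (rank 442).

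Within 20000 bp of the clusters the lists held 18, 14, 12 and 16 E2f4 summits in WT 1, WT 2, KO 1 and KO 2, of which 16, 12, 10 and 14 were within 1000 bp of a histone gene start. The other 2 in every library were the site past H1f5 and a site at the transfer RNA gene n-TScga1.

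The E2F letters TTCCCGC and also TTCGCGC and further TTGCCGC and finally TTGGCGC were searched on both strands of each promoter from 250 bp before to 50 bp after the start, in the RefSeq promoter table (60 sequences for 59 histone genes). At least 1 of them occurred in 18 of 60 (30.0%), against 12.1% of all promoters of that length. TTCGCGC alone occurred in 11 of 60 (18.3%), against 2.11% of all. These sequences are counted per gene, so both genes of a pair can hold the same letters and summit. This is so for H2ac12/H2bc12, H2ac11/H2bc11, H2bc7/H2ac7 and H2ac22/H2bc22. Where both WT libraries had a summit, 10 of 14 sequences held E2F letters, and where no library had one, 5 of 36. Those 5, H2ac18, H2ac19, H4c11, H4c12 and H2ac24, are all among the near copies of other histone promoters, whose part in the missing peaks was not tested. H4c14, called in every library, was not among the promoters searched. Among the other genes called in both WT libraries, 309 held E2F letters and 373 did not. Read in the opposite direction, 13% of other genes holding E2F letters and 2.48% of those lacking them were called in both. The like count for the 13% is 10 of the 18 histone sequences that held letters. A match is a run of letters and not evidence of a site, and reading E2f4 lists against E2F letters uses promoters chosen with those lists known.

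The letters divided by class. TTCGCGC lay in 7 promoters with an H2A or H2B gene: 4 of them were called in 3 or 4 libraries, H2ac10 in 2, and H2ac18 and H2ac19 in none. Of the 16 such promoters without it, 1 was called in 4 libraries (H2bc15, at its downstream site), 5 in 1 or 2 and 10 in none. TTCCCGC lay in 5 of 11 H4 promoters, of which H4c1 was called in 4 libraries, H4c4 and H4c6 in 1 or 2, and H4c11 and H4c12 in none. The 6 H4 promoters without it were called in none. No E2F letters were found in the 10 H3 or the 6 H1 promoters, although H3c8 and H3c3 were called in every library.

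Summits lay close to the letters. At H2ac12 they were 6, 5, 6 and 9 bp from the centre of GCGCGAA in WT 1, WT 2, KO 1 and KO 2. At H2ac11 the distances were 13, 8, 2 and 8 bp, at H2ac7 10, 11, 3 and 6 bp, and at H2ac22 8, 1 and 7 bp in the libraries that had the peak. H2ac10 stood at 39 and 3 bp. Of the 17 summits near TTCGCGC at histone genes, 16 (94.1%) were within 13 bp, with a median of 7 bp. These 17 are repeat calls of up to 4 libraries at the promoters of H2ac12, H2ac11, H2ac7, H2ac22 and H2ac10, so they are not independent. At the other promoters with these letters, 47 of 184 summits within 300 bp (25.5%) were as close, with a median of 34.5 bp. The 13 bp limit was taken from the histone values, so the 94.1% follows in part from that choice. At H4c1 the nearest TTCCCGC copy was 20, 16, 7 and 18 bp from the summit, while H4c4 was 76 and 25 bp away and H4c6 26 bp.

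**Figure D2:**
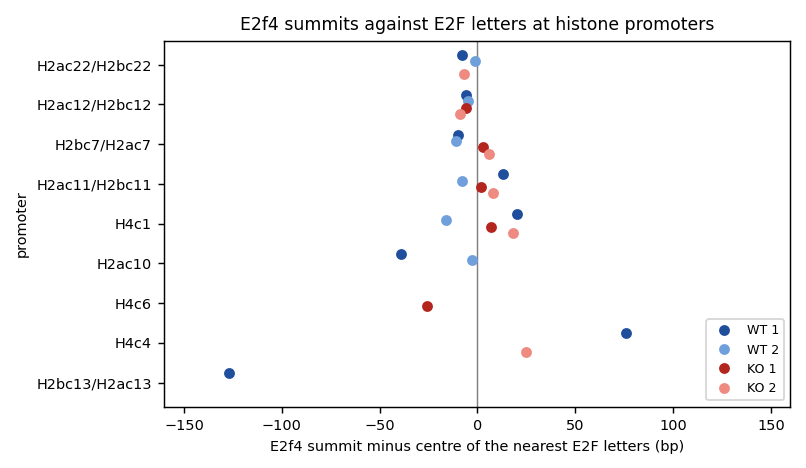
Position of E2f4 summits relative to the centre of the nearest E2F letters, in bp on the plus strand, for the 9 histone promoters that hold such letters and have a summit within 300 bp. Points are single libraries (WT in blue, KO in red); at the 4 upper promoters all points lie within 13 bp of 0, while H4c4 and H2bc13/H2ac13 lie farther out.

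Other promoter letters were unequally spread over the histone classes. CCAAT was in 52 of 60 promoters (86.7%, against 38.2% of all): in every H1, H2A, H2B and H3 promoter and in 3 of 11 H4 promoters. TATAAA was in 56.7% (12.6% of all) and TTTGAA, the cell cycle homology region, in 45.0% (16.0% of all). The octamer core ATGCAAA was in 6 of 17 H2A and 7 of 16 H2B promoters and 23.3% in all (4.23% of all promoters). The H1 box AAACACA was in 5 of 6 H1 promoters and 15.0% in all (6.15%), and GGTCCG, the core bound by Hinfp, in 10 of 11 H4 promoters and 20.0% in all (10.5%). All were searched on both strands, and matches of different letters may overlap.

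Several promoters are near copies, and reads that fall wholly in identical stretches cannot be told apart (the authors' handling of such reads: not given in the sources used here). The promoter windows of H2bc23 and H4bc24 were identical, and those of H4c17 and H4c18 (95.0%), H3c14 and H3c15 (94.7%), H2ac18 and H2ac19 (73.0%), H2ac23 and H2ac24 (66.7%) and H4c11 and H4c12 (64.7%) shared most of their bases in runs of 30. None of these genes had an E2f4 summit in any library.

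H3K27ac covered more of the chromatin around histone genes in the KO list than in the WT list. Within 5000 bp of the start, a window of 10001 bp, the median covered length was 3578 bp in WT and 5343 bp in KO. It was at least 1000 bp longer in KO at 42 of 64 genes (65.6%) against 11.9% of all genes with the mark, and at least 1000 bp shorter at none, against 12.2%. By any length it was longer at 61 genes and shorter at 3, where 52.6% of all genes were longer. The median difference was 1902.5 bp, against 36 bp over all genes, and single genes ran from -333 to 5998 bp. There was 1 library per genotype, so this difference has no replicate check. Windows of neighbouring genes overlap, so 1 region can be read at several genes and the genes are not independent. Counting each promoter once does not remove this overlap. With the window limited to 1000 bp, 6 histone genes passed the same length, against 1.39% of all genes.

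**Figure D3:**
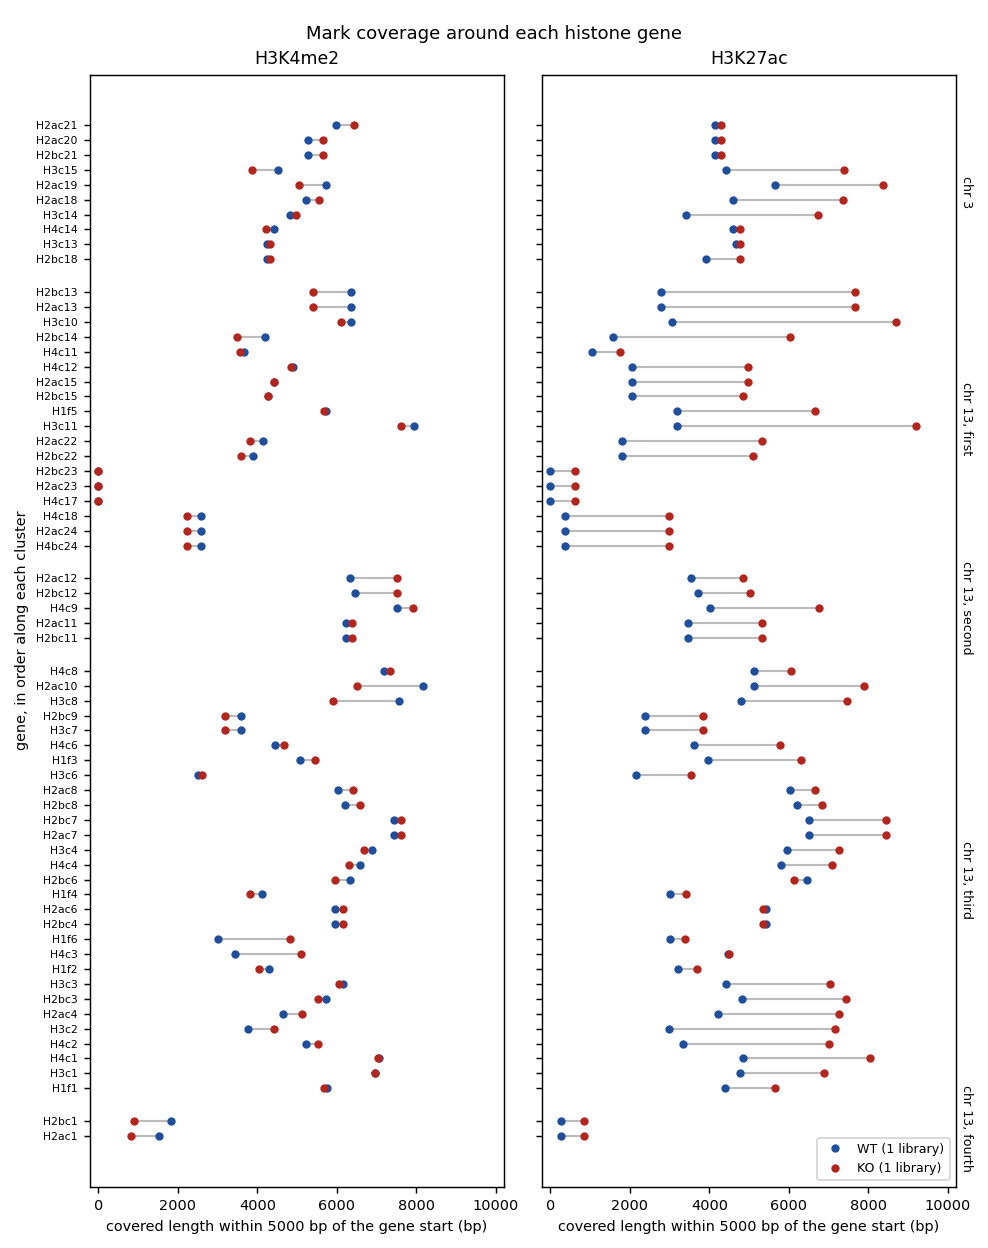
Length covered by H3K4me2 (left) and H3K27ac (right) within 5000 bp of each of the 64 gene starts, in bp, with genes in order along the 5 clusters; blue is the WT library, red the KO library, and a grey line joins them. The red H3K27ac points stand to the right of the blue ones for 61 genes, and the H3K4me2 points lie on either side.

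H3c11 had the greatest difference, with 3188 bp of H3K27ac in WT and 9186 bp in KO. H3c10 went from 3060 bp to 8697 bp, and the pair H2bc13 and H2ac13 from 2773 bp to 7651 bp. H2bc14 had 1589 bp and 6016 bp. These genes all belong to the first chromosome 13 cluster. In the KO list a region of 8160 bp spans H2bc13, H2ac13, H3c10 and H2bc14, so their values are not separate observations. The 3 genes with shorter H3K27ac in KO were H2bc6 (6463 bp in WT and 6130 bp in KO) and the pair H2ac6 and H2bc4 (5417 bp and 5343 bp), all in the third cluster. Each H2bc6 value is the greatest over its annotated starts in that list. Regions filled the innermost window more often in KO: the whole stretch from 1000 bp before to 1000 bp after the start was covered at 19 genes in WT (16.7% of all genes) and 42 in KO (18.3% of all genes), while the number with any H3K27ac there was 55 (56.9% of all genes) and 58 (57.1% of all genes).

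The H3K27ac difference varied by cluster. At least 1000 bp more in KO was found at 4 of 10 genes on chromosome 3, at 14 of 18, 5 of 5 and 19 of 29 in the first 3 clusters of chromosome 13, and at neither testis gene. The 4 on chromosome 3 (H3c15, H2ac19, H2ac18 and H3c14, 2715 to 3317 bp) are all near copies, and the others there differed by 107 to 839 bp. Among near copies on chromosome 13, H4c12, H4c18, H2ac24 and H4bc24 passed 1000 bp, and H4c11, H2bc23, H2ac23 and H4c17 did not. The part of shared reads in this was not tested. The first chromosome 13 cluster with 5000 bp on each side had 10190 bp under H3K27ac in WT and 29613 bp in KO, a ratio of 2.91, and its longest region was 1817 bp in WT and 8160 bp in KO. The chromosome 3 cluster had 17630 and 25340 bp, the second chromosome 13 cluster 6374 and 9376 bp, and the third 70372 and 88436 bp, ratios of 1.44, 1.47 and 1.26. The testis pair had 283 and 1283 bp. Over the 5 clusters the length was 104849 bp in WT and 154048 bp in KO, a ratio of 1.47, while the whole-genome H3K27ac length was 113 Mb (WT) and 104 Mb (KO), a ratio of 0.921.

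**Figure D4:**
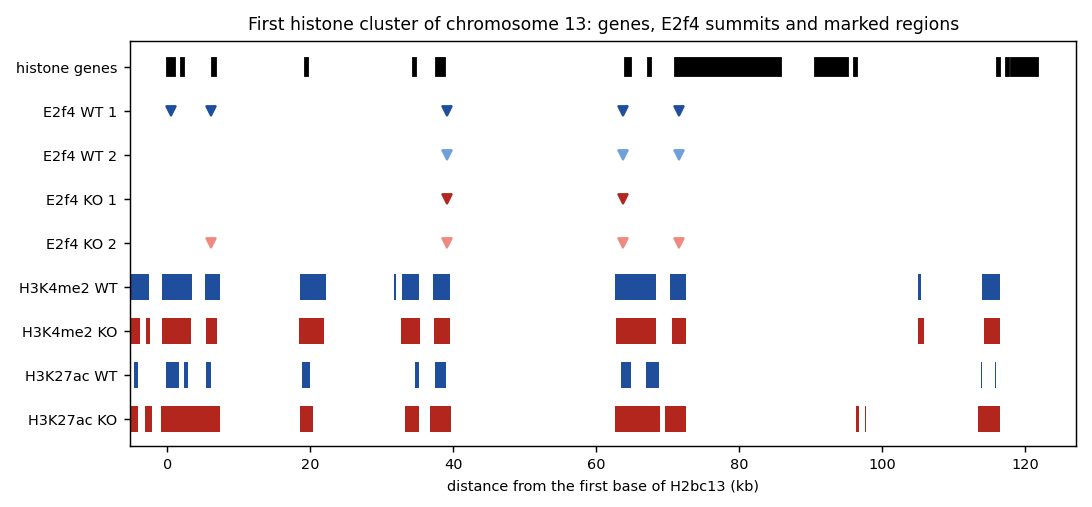
The first histone cluster of chromosome 13, in kb from the first base of H2bc13: gene models (black), E2f4 summits in each library (triangles) and H3K4me2 and H3K27ac regions in the WT (blue) and KO (red) lists. H3K27ac regions are short and separate in WT, with 10190 bp in all, and cover 29613 bp in KO, mostly where H3K4me2 is present.

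By class, 11 of 12 H3 genes had at least 1000 bp more H3K27ac in KO, as had 11 of 17 H2A, 10 of 17 H2B, 7 of 12 H4 and 3 of 6 H1 genes. The median differences were 2654 bp for H3, 1941 bp for H2A, 1720.5 bp for H4, 1447 bp for H2B and 870 bp for H1. Genes with and without E2f4 both showed it: 13 of the 15 genes called in both WT libraries (median 1941 bp) and 22 of 39 with none in any library (median 1367 bp). Among other genes with E2f4 in both WT libraries, 17.3% had at least 1000 bp more H3K27ac in KO and 5.98% had at least 1000 bp less.

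H3K4me2 covered nearly equal lengths in the 2 genotypes at the same genes. The mark lay within 5000 bp of 61 of the 64 genes, with medians over all 64 of 5220 bp in WT and 5410 bp in KO. At least 1000 bp more in KO was found at 4 of 61 (6.56%, against 11.9% of all genes with the mark) and at least 1000 bp less at 2 (3.28%, against 5.97%). It was longer at 27 genes (60.2% of all genes were longer) and shorter at 34, and the median difference was -22 bp, against 132 bp over all genes. In the 5 clusters H3K4me2 covered 139898 bp in WT and 140500 bp in KO. Its genome-wide length was 104 Mb in WT and 112 Mb in KO, a ratio of 1.07. These are also 1 library per genotype.

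**Figure D5:**
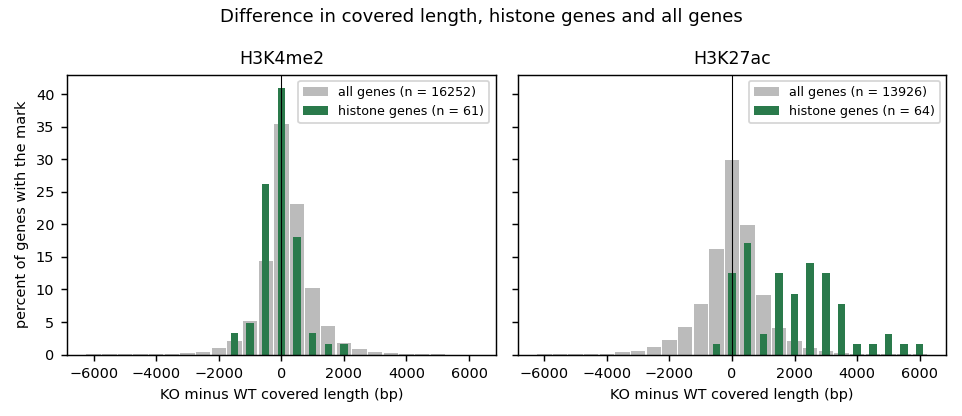
Distribution of the KO minus WT covered length within 5000 bp of the gene start, in 500 bp bins, as a percent of the genes with the mark, for histone genes (green) and all genes (grey). For H3K27ac the histone genes have a median of 1902.5 bp and all genes 36 bp; for H3K4me2 the medians are -22 and 132 bp.

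The 4 genes with more H3K4me2 in KO were H1f6, a testis linker histone (3021 bp in WT and 4813 bp in KO), H4c3 (3428 and 5107 bp), H2ac12 (6324 and 7524 bp) and H2bc12 (6464 and 7524 bp). The 2 with less were H2ac10 (8178 and 6510 bp) and H3c8 (7567 and 5911 bp), which are neighbours. Of the 15 genes called in both WT libraries, 2 were thus longer and 2 shorter, where 5.7% and 6.19% of other genes with E2f4 in both were. H2bc13 and H2ac13 followed with 6346 and 5410 bp. The mark lay within 1000 bp of 57 genes in each genotype, against 66.8% and 67.9% of all genes. Neither mark lay within 1000 bp of H2bc23, H2ac23, H2ac24, H4bc24, H2bc1 and H2ac1 in either genotype. H2bc1 and H2ac1 are the testis pair, and the other 4 are among the near copies. H4c17, another near copy, had only 439 bp of H3K27ac there, in KO.

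The part of the H3K4me2 length that also held H3K27ac was higher in KO in each cluster. It was 62.3% in WT and 83.4% in KO for chromosome 3, and 34.5% and 86.3%, 61.3% and 74.1%, 79.2% and 89.3%, and 12.6% and 89.7% for the 4 clusters of chromosome 13 in order. Over the genome it was 67.0% in WT and 63.5% in KO.

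Genes next to the clusters give a local comparison. They were 19 other genes with H3K27ac that reach within 200 kb of a cluster and start more than 10 kb from a histone gene start. Carmil1 reaches so near but starts 346365 bp from the nearest histone gene start. Of the 19, 4 had at least 1000 bp more in KO (Sf3b4, Abt1, Slc17a2 and Slc17a4) and 1 had at least 1000 bp less (Trim38). The shares of all genes with the mark were 11.9% and 12.2%. The median difference over the 19 was 158 bp. Hfe, an iron regulator that lies inside the third chromosome 13 cluster, had 6999 bp in WT and 6646 bp in KO. None of the 19 had an E2f4 summit.

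Genes that act on histone genes and histones were counted as lists chosen with the lists' results known. Of 20 genes for histone mRNA expression, 7 had an E2f4 summit in both WT libraries, against the 3.83% of all genes given above. Hinfp, which activates H4 genes, ranked 113, 69, 55 and 78 in WT 1, WT 2, KO 1 and KO 2. Pou2f1, which binds the octamer, ranked 174, 91, 34 and 115, and Mybl2, a cell cycle transcription factor, 153, 151, 139 and 133. Ccne1, a cyclin of the G1/S transition, ranked 421, 440, 201 and 188, and these 4 were called in every library. Slbp, which binds the stem-loop of histone mRNA, was called in the WT libraries alone (ranks 832 and 901). Casp8ap2 and Eri1, which act in histone mRNA processing and trimming, were called in both WT libraries and in KO 2. Npat, the coactivator of histone transcription, had no summit in any library.

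H3K27ac was at least 1000 bp longer in KO at 3 of these 20 genes, near the 11.9% of all genes with the mark, and at least 1000 bp shorter at none. They were Lsm10 (2165 bp in WT and 3485 bp in KO), Zfp473 (1560 and 2979 bp), both tied to the U7 particle that cuts histone mRNA, and Ccne2 (1861 and 4644 bp). Of 18 histone chaperone genes, 7 had E2f4 in both WT libraries and 3 in all 4: Asf1b, Mms22l and Hjurp. The shares of all genes were 3.83% and 1.1%. Chaf1b and Rbbp4, subunits of chromatin assembly factor 1, were called in both WT and no KO library. H3K27ac was at least 1000 bp longer in KO at 3 of the 18 and shorter at 2, near the 11.9% and 12.2% of all genes with the mark.

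Of 11 genes for replication-independent histones, 4 had E2f4 in both WT libraries, against 3.83% of all genes. H2az1, which encodes the variant H2A.Z, ranked 175, 68, 31 and 125, and H2az2, H3f3a and Cenpa were not in every list. H3K27ac was at least 1000 bp longer in KO at H3f3b (4459 and 7426 bp) and Cenpa (2279 and 3854 bp) and shorter at H2az1 (7060 and 5163 bp). Of all genes with the mark, 11.9% were longer and 12.2% shorter by that length.

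Markers of liver cell types were read in the same lists. All 10 hepatocyte genes had both marks within 1000 bp in both genotypes, and no gene of any marker list had an E2f4 summit. H3K4me2 was at least 1000 bp shorter in KO at 5 of 6 lymphocyte genes (median 4107.5 bp in WT and 0 bp in KO). It was at least 1000 bp longer at 5 of 6 endothelial, 2 of 4 stellate and 1 of 4 Kupffer genes, and at no gene of the other lists. Outside the lymphocyte list it was at least 1000 bp shorter only at 1 of 10 hepatocyte genes (Serpina1a). Of all genes with the mark, 5.97% were shorter and 11.9% longer by that length. Lymphocyte genes with no H3K4me2 within 1000 bp numbered 1 in WT and 5 in KO. Of all genes, 66.8% in WT and 67.9% in KO had the mark there. H3K27ac was at least 1000 bp longer in KO at 4 of 10 hepatocyte genes and 1 of 6 lymphocyte genes. It was so at none of the 6 endothelial, 4 Kupffer, 4 stellate and 4 cholangiocyte genes. The share of all genes with the mark was 11.9%. At 5 of the 10 hepatocyte genes H3K27ac filled the whole window in both genotypes, so no difference could show; of the other 5, Hnf4a (6187 bp in WT and 7940 bp in KO), Cps1 (6943 and 8597 bp), Ass1 (8834 and 10001 bp) and Serpina1a (7459 and 8481 bp) were the 4 that were longer. The median difference was 0 bp over all 10 hepatocyte genes and 1167 bp over those 5. The medians were 0 bp for lymphocyte and cholangiocyte genes, -344.5 bp for endothelial, -549 bp for Kupffer and -1238 bp for stellate cell genes. Their part in the histone gene results was not tested.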

How the data were processed

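E2f4, H3K4me2 and H3K27ac lists of 8 ChIP-seq libraries were used; the 8 inputs were not analysed here. The submitters' processing notes name MACS2 2.0.10.20131216, Bowtie2 2.2.3, HOMER and Picard, without roles, and build mm10; peak names carry MACS2. Tissue was fixed in 1% formaldehyde for 20 min, per the labels. The deposited lists, 1 per library, give each region the authors' fold enrichment, −log10 p-value, −log10 q-value and a score, which was not used; the role of inputs: not given in the sources used here. Lowest −log10 q-values were 1.33 for E2f4 and 1.0 for the marks.

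The group, gene lists and rules were chosen with earlier results of these data known. Starts came from RefSeq promoters (GRCm38.p6) for 17491 of 21883 genes and 59 of 64 histone genes; otherwise the gene end with more H3K4me2 within 2000 bp (3236 genes, 5 of them histone genes) or both ends (1156) was used. For a gene with several starts, the greatest covered length over them was taken, separately in each list. Named genes were those with a summit in all 4 libraries, in both WT and no KO library, outside the main cluster, with neither mark, or with up to 4 of the greatest length differences each way. For some counts of 5 or fewer, but not all, the genes were also named, after their values were seen. Distances and lengths were computed in Python 3.11.15 (pandas 2.3.3, numpy 2.4.6), tested on simulated data. No test was run, since a list holds no counts and each mark has 1 library per genotype. Alternatives were other windows, q-value limits, equal list lengths, any peak base, either gene end, single counting of promoters, and each E2f4 library left out. Protein sequences were not used.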

Additional observations from a re-analysis of the deposited data

How the results depend on the processing

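Of 84 alternative values, 21 moved and 3 turned; the other 60 kept their direction, with counts within 1.5 times and the WT minus KO difference within the spread between libraries. That spread is wide: the difference, 3.5 as reported, was 1.5 with −log10 q-values of at least 10. Lists limited to equal length turned the WT minus KO difference in histone genes with an E2f4 summit from 3.5 to -2.0, and gave 8 genes and 6 promoters in both WT libraries. With a window of 2000 bp all 4 libraries shared 19 genes; with 5000 bp they shared 26, both WT libraries had 29 genes and 23 promoters, and at least 1 KO library had 36. Leaving out each E2f4 library in turn gave 16 to 22 genes and 12 to 16 promoters for WT, 13 to 18 genes for KO, 12 to 14 for all remaining libraries and a difference of 0.5 to 6.5; it was 0.5 without WT 1, 6.5 without WT 2, 1 without KO 1 and 6 without KO 2.

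The alternatives for genes with at least 1000 bp more of either mark in KO were chosen after seeing the data. For H3K27ac they gave 6 with a window of 1000 bp (1.39% of all genes), 50 with 10000 bp (16.7% of all genes), 43 with −log10 q-values of at least 5 (16.4%), 43 with equal lists (12.9%) and 35 counting promoters; 1 gene was 1000 bp shorter with 10000 bp. The median difference was 109.5 bp with 1000 bp, 3140.5 bp with 10000 bp and 2979 bp with the q-value limit. For H3K4me2, genes 1000 bp shorter numbered 0 of 57, 12 of 62 and 6 of 58 with 1000 bp, 10000 bp and the q-value limit (0.648%, 9.02% and 6.83% of all genes), and genes 1000 bp longer 1, 7 and 8 (0.807%, 18.4% and 12.4%); the median difference was 0, 6 and 8 bp, and it was -46 bp with equal lists and -47 bp by promoter. The cause was not tested.

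No paired analysis was possible because the results come from no test and no label ties the replicate numbers to an animal or a day. Depth is unknown, so a missing peak does not show that E2f4 was absent, and covered length depends on where regions were cut.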

Other observations

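A site at the serine transfer RNA gene n-TScga1, chr13:22022419-22022500, was the only E2f4 summit near a histone cluster in every library that was not beside a histone gene. Its summits were at 22022439, 22022436, 22022415 and 22022444 in WT 1, WT 2, KO 1 and KO 2, and the third of these lay outside the annotated gene. The ranks were 290, 303, 110 and 386. The nearest histone gene, H2ac12, started 13204, 13207, 13228 and 13199 bp away.

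At H3c8, whose E2f4 peak was among the strongest of every list, the marks differed between genotypes in opposite directions: H3K4me2 covered 7567 bp in WT and 5911 bp in KO, and H3K27ac 4785 bp and 7471 bp. H2ac10, next to it, had 8178 and 6510 bp of H3K4me2 and 5131 and 7897 bp of H3K27ac. These are values of 1 library per genotype.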
